A study of Mus musculus with 12 samples.

Results

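The fatty acid and triglyceride synthesis genes are a list of 38 mouse genes that cover the making of fatty acids from citrate and acetate, their elongation and desaturation, their activation and binding, the assembly of triglyceride, and the regulators of these steps. Members were found by gene symbol in the platform's annotation, and each gene was read from its brightest probe set, the one highest on average across all 12 arrays. Of the 38 genes, 37 had a probe set and 36 passed the filter on low signal, among 14198 genes tested in all. Olah, the thioesterase that ends synthesis at medium chain lengths in the mammary gland, did not pass: its 2 probe sets had a highest mean of 5.23 on the log2 scale, below the filter level of 6.04. The signal of Acsl1 was not analysed here. Signals are log2 probe set values, and a difference of 1 on this scale is 2-fold.

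The series measured whole mammary tissue of mice 6 days after a mating plug, with 3 arrays of each of 4 genotypes that differ in their intact alleles of Stat5a and Stat5b. Single-Stat5b mice (Stat5abnull/Stat5a- in the labels) carried 1 intact Stat5b allele and no intact Stat5a, and single-Stat5a mice (Stat5abnull/Stat5b-) carried 1 intact Stat5a allele and no intact Stat5b. Stat5a-/- mice carried 2 intact Stat5b alleles and no intact Stat5a, and Stat5ab+/null mice carried 1 intact allele of each gene. All 12 mice were on a mixed C57BL/6, FVB and 129 background, and none of the 4 genotypes had all of its Stat5 alleles. The treatment text in the labels also names an injection of PolyIC to activate an Mx1-Cre transgene, and the descriptions speak of sorted cells, whereas the series design gives whole tissue, which was followed. Whether these mice carried or received either is not settled by the labels.

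Stat5a and Stat5b are the transcription factors through which prolactin acts on mammary epithelium. In the gland, acetyl-CoA carboxylase and fatty acid synthase supply the fatty acids of milk triglyceride in the secretory cells of late pregnancy and lactation, while white adipocytes, which fill the fat pad of early pregnancy, and brown adipocytes use the same enzymes. SREBP-1 and ChREBP (Mlxipl) switch on most of these genes, and the lipins turn phosphatidic acid into the diacylglycerol from which triglyceride is made. In whole tissue a lower signal from fewer cells of a type and one from less RNA per cell cannot be told apart.

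The targeted genes and the arrays were checked first. Stat5a signal was 10.98 ± 0.11 in single-Stat5b arrays and 12.21 ± 0.34 in single-Stat5a arrays (SD, n = 3 each), a difference of -1.23 (limma, Benjamini-Hochberg adjusted p = 0.00286). In Stat5a-/- and Stat5ab+/null arrays it was 10.30 ± 0.18 and 9.91 ± 0.15 (SD, n = 3 each), a difference of 0.39 that runs against the labels and did not pass the test (limma adjusted p = 1.00). Stat5b differences were 0.20 (limma adjusted p = 0.796) and -0.31 (limma adjusted p = 1.00) in the same order of comparisons, so that in the 2-allele set Stat5b also ran against the labels. Sample titles of the Stat5a-/- arrays contain ABB, and those of the Stat5ab+/null arrays contain AAB, which would contradict the genotype labels if the letters stand for alleles. If the labels of the 2-allele set were exchanged, the sign of every difference in that set would turn. Whether the probe sets lie inside the deleted part is not stated, so the directions below rest on the labels. The 2 genotypes with 1 allele formed an array set apart from the 2 genotypes with 2 alleles. Correlations between arrays over all probe sets were 0.948 to 0.994 between genotypes of the same set and 0.818 to 0.883 between sets. Array set and number of intact alleles cannot be told apart, so genotypes were tested against each other only within each set. The smallest p that an exact permutation of 3 arrays against 3 can give is 0.1, so calls come from limma, at a Benjamini-Hochberg adjusted p under 0.05 over all 14198 genes.

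Between the single-allele genotypes, 1 of the 36 genes fell and none rose. Lpin1, a phosphatidic acid phosphatase that also acts in the nucleus as a coregulator of fatty acid oxidation genes, fell by 1.04 on the log2 scale in single-Stat5b tissue, or 2.05-fold. In the same comparison 2.18% of all genes were called, 0.817% higher and 1.37% lower, so that the called share of the list, 2.78%, was near the background. Of the 36 genes, 13 lay above 0 and 23 below it, with a median difference of -0.05 against -0.03 over all genes. On the probe sets used, the difference was within 1.5-fold for 33 of 36 genes, the exceptions being Lpin1, Pcx and Fabp3. Some other probe sets, such as the third of Scd2 at 3.31, differed by more.

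**Figure D1:**
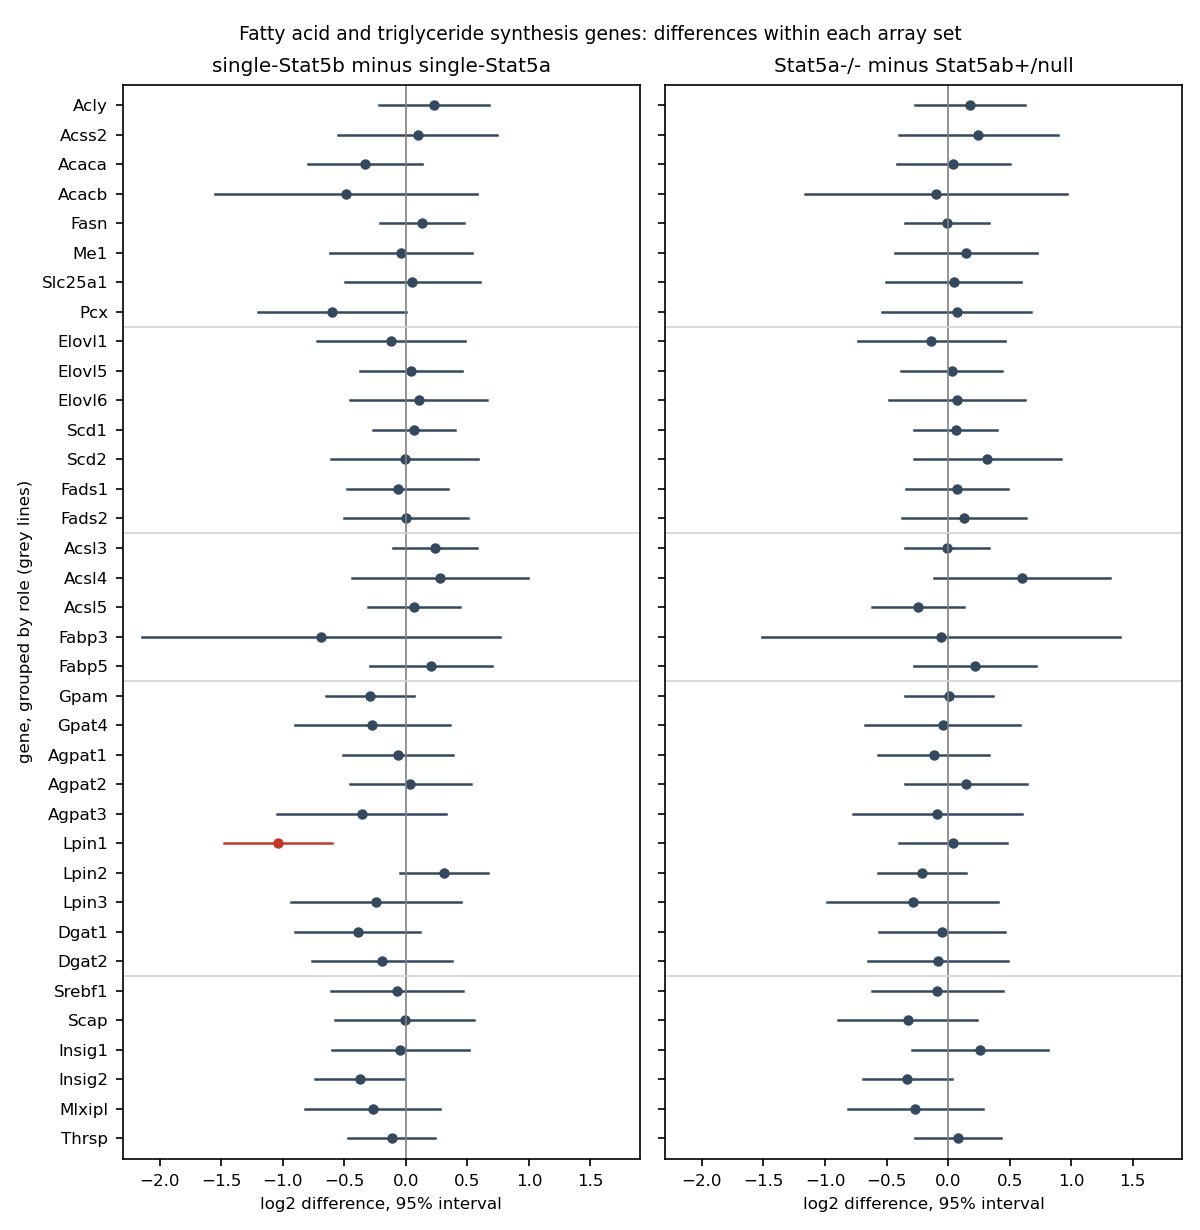
Differences of the 36 tested genes in log2 units with 95% intervals, single-Stat5b minus single-Stat5a on the left and Stat5a-/- minus Stat5ab+/null on the right, with genes grouped by role between grey lines. Lpin1 on the left, in red, is the 1 gene that passed the test, at -1.04.

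Lpin1 is encoded on the minus strand of chromosome 12 and its relatives Lpin2 and Lpin3 on the plus strands of chromosomes 17 and 2. The promoter windows of the 3 lipins are shown because they make up the step at which the called gene lies, that of Fasn because it is the central enzyme of the pathway, and that of Agpat1 because it is the 1 member with a STAT5-type motif. Windows of 300 bases, 250 before the start of the gene and 50 from it on, were taken from RefSeq, build GRCm38.p6, and 31 of the 38 genes had at least 1. Lpin1 and Fasn had 1 window each, and of the 3 of Lpin2 and the 2 each of Lpin3 and Agpat1 the first is shown. Capitals mark the letters of 4 motifs searched on both strands: TTCNNNGAA (the STAT5-type motif), CACGTG (the E-box), CCAAT (the box bound by NF-Y) and TCACNCCAC (a sterol element). The windows are Lpin1 at chr12:16610917-16611216 (minus strand), Lpin2 at chr17:71183282-71183581 (plus strand), Lpin3 at chr2:160880420-160880719 (plus strand), Fasn at chr11:120824498-120824797 (minus strand) and Agpat1 at chr17:34605611-34605910 (plus strand).
Lpin1: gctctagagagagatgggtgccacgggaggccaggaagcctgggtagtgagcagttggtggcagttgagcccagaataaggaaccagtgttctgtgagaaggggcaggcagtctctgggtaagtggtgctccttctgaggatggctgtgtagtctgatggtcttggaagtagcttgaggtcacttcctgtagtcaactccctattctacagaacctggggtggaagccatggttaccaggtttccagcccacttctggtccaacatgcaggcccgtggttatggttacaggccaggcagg
Lpin2: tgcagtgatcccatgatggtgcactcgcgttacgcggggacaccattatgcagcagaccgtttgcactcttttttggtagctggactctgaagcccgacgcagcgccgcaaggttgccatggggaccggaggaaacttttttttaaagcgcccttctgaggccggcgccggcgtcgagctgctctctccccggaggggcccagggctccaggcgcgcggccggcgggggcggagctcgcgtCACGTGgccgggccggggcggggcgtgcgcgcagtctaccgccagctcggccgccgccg
Lpin3: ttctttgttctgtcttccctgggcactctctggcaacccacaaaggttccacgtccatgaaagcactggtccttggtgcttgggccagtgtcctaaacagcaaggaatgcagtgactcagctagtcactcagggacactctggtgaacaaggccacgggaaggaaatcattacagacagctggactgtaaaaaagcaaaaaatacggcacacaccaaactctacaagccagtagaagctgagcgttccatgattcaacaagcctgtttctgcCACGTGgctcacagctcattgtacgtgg
Fasn: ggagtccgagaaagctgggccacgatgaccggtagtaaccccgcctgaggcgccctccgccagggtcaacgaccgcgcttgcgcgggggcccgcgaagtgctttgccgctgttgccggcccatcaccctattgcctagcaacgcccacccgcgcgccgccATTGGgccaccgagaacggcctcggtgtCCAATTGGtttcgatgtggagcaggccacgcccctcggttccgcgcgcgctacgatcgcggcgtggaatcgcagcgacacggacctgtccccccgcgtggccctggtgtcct
Agpat1: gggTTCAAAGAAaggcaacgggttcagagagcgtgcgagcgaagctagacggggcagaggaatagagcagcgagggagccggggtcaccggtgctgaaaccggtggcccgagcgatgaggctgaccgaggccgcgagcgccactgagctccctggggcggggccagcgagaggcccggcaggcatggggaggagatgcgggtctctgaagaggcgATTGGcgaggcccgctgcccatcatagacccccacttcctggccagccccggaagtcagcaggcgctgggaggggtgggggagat
The Lpin1 window held none of the 4 motifs in these letters. The Lpin2 and Lpin3 windows shown each held 1 CACGTG, which their other windows did not hold. Another Lpin2 window held 3 CCAAT boxes, and the other Lpin3 window held none of the motifs. CACGTG occurred in 7.15% of 32851 mouse promoter windows and in 9 of the 46 windows of listed genes, or 19.6%. These windows belong to 8 genes, the others being Elovl5, Insig1, Mlxipl, Pcx, Scap and Slc25a1. The Scap windows overlap and hold the same CACGTG. The Fasn window held 3 CCAAT boxes, of which 2 overlap on opposite strands as CCAATTGG. CCAAT occurred in 37.4% of all windows and in 47.8% of the windows of listed genes, from 20 genes. TTCNNNGAA occurred in 8.30% of all windows and in 2.17% of the windows of listed genes. That was the Agpat1 window shown alone, where it begins 247 bases before the start. TCACNCCAC occurred in 1.24% of all windows and in 4.35% of the windows of listed genes, those of Acsl1 and Mlxipl. These are matches of letters, not measured binding sites.

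Lpin1 signal was 10.83, 10.94 and 11.28 in the single-Stat5b arrays, against 11.97, 12.14 and 12.06 in the single-Stat5a arrays. All 3 single-Stat5b arrays lay below all 3 single-Stat5a arrays. The difference was -1.04 ± 0.20 (SE), with a 95% interval from -1.47 to -0.60 (limma adjusted p = 0.0143). In the 2-allele set Lpin1 signal was 12.01, 12.51 and 11.87 in Stat5a-/- arrays, against 11.94, 12.02 and 12.32 in Stat5ab+/null arrays. These groups overlapped, with a difference of 0.04, so that among the 12 arrays the single-Stat5b arrays held the 3 lowest values. The second Lpin1 probe set gave 10.31, 10.51 and 9.71 in single-Stat5b arrays, against 11.21, 11.32 and 11.32 in single-Stat5a arrays, and 10.89, 11.20 and 10.25 in Stat5a-/- arrays, against 10.63, 10.36 and 10.72 in Stat5ab+/null arrays. Its groups did not overlap in the single-allele set either, and with each probe set tested on its own its difference was -1.11 (limma adjusted p = 0.0380). In the 2-allele set its difference was 0.21.

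The call of Lpin1 held in 18 of 26 alternative analyses, with the difference between -1.17 and -0.78 in all 26. With only the single-allele arrays in the fit the adjusted p was 0.0848. Several cell type marker means also differed between the single-allele genotypes, and their part in the Lpin1 difference was not tested. White adipocyte markers, 13 of 16 measured, averaged 12.19, 11.79 and 12.41 in single-Stat5b arrays, against 12.45, 12.61 and 12.43 in single-Stat5a arrays. These means did not overlap, although the nearest arrays almost met, and 10 of 13 genes lay below 0. Skeletal muscle markers, 12 of 13 measured, averaged 7.49, 8.15 and 10.36 in single-Stat5b arrays, against 10.34, 13.27 and 9.41 in single-Stat5a arrays. These means overlapped, and all 12 genes lay below 0 with a median of -2.46. Endothelial markers, 9 of 9 measured, averaged 9.36 to 9.81 in single-Stat5b arrays and 9.90 to 10.13 in single-Stat5a arrays, without overlap. Luminal epithelial markers, 15 of 15 measured, ran the other way, at 10.68 ± 0.28 in single-Stat5b arrays and 10.31 ± 0.32 in single-Stat5a arrays (SD, n = 3 each). None of these marker genes passed the test on its own. With the white adipocyte mean as a covariate the Lpin1 difference was -0.78 (limma adjusted p = 0.159). With those of B cells and muscle it was -0.94 (limma adjusted p = 0.150), and with that of luminal cells -1.08 (limma adjusted p = 0.0524). Lpin1 kept its call with the brown adipocyte mean as a covariate, at -1.04 (limma adjusted p = 0.0272). The call also held with the 3 prime minus 5 prime difference of actin as a covariate, at -0.999 (limma adjusted p = 0.0256).

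**Figure D2:**
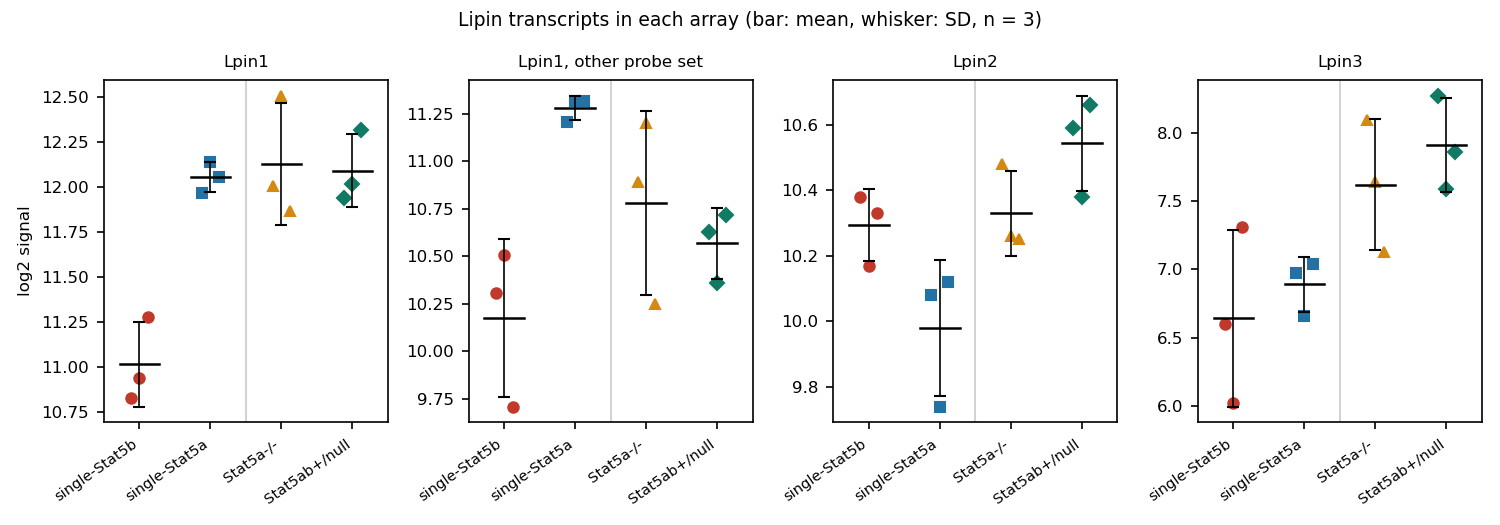
Log2 signal of the lipin probe sets in each of the 12 arrays, with the mean and SD of each genotype (n = 3), the axes not starting at 0. For both Lpin1 probe sets the single-Stat5b arrays lie below the single-Stat5a arrays without overlap, while the Stat5a-/- and Stat5ab+/null arrays overlap.

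The other lipins did not pass the test. Lpin2 signal was 10.38, 10.17 and 10.33 in single-Stat5b arrays, against 10.08, 9.74 and 10.12 in single-Stat5a arrays, a difference of 0.31 in the other direction from Lpin1 and without overlap. In the 2-allele set it was 10.48, 10.26 and 10.25 in Stat5a-/- arrays, against 10.59, 10.38 and 10.66 in Stat5ab+/null arrays, a difference of -0.21 with overlap. Its other 2 probe sets past the filter differed by 0.04 and -0.26 between the single-allele genotypes, so that 1 lay nearer 0 on the same side and 1 on the other side. Lpin3 gave 6.60, 6.02 and 7.31 in single-Stat5b arrays, against 6.97, 6.66 and 7.04 in single-Stat5a arrays, and 8.09, 7.64 and 7.13 in Stat5a-/- arrays, against 8.27, 7.59 and 7.86 in Stat5ab+/null arrays. Its groups overlapped in both sets. Whether the exchange of Stat5a for Stat5b differed between the 1-allele and 2-allele genotypes was tested as an interaction, in which 0.775% of all genes and 0 of the 36 were called. In this interaction number of alleles and array set cannot be told apart. An exchange of the labels of the 2-allele set would change its values. At an unadjusted p under 0.05 the interaction held 1026 of all genes and 2 of the 36, Lpin1 at -1.08 (limma adjusted p = 0.157) and Lpin2 at 0.52 (limma adjusted p = 0.665).

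The remaining genes of triglyceride assembly stayed below the threshold between the single-allele genotypes. This group takes glycerol 3-phosphate through the acyltransferases Gpam and Gpat4, then the Agpat enzymes and the lipins, to the final step by Dgat1 or Dgat2. On the probe sets used, 8 of its 10 genes lay below 0 in single-Stat5b minus single-Stat5a, with a median of -0.26. Other probe sets past the filter lay above 0 for Dgat1 at 0.27, Gpam at 0.14 and Agpat1 at 0.27. Those of Agpat3 (-0.42 to -0.03), Dgat2 (-0.10) and Lpin1 (-1.11) lay below it. Dgat1 signal was 10.92, 11.03 and 11.77 in single-Stat5b arrays, against 11.88, 11.63 and 11.39 in single-Stat5a arrays, a difference of -0.39 with overlap. Gpat4 signal was 8.25, 8.23 and 9.46 in single-Stat5b arrays, against 9.21, 8.73 and 8.83 in single-Stat5a arrays, a difference of -0.27. For both genes the third single-Stat5b array stood apart from the others of its genotype and lay within or above the single-Stat5a values. With arrays weighted by their quality in limma, Dgat1 at -0.75 (limma adjusted p = 0.0227) and Gpat4 at -0.71 (limma adjusted p = 0.0376) also passed. Gpam at -0.29, Agpat3 at -0.36, Dgat2 at -0.19, Agpat1 at -0.06 and Agpat2 at 0.04 complete the group, and none of these passed the test in either set.

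The genes for making fatty acids from citrate and acetate did not pass the test between the single-allele genotypes. Of the 8 tested genes, 4 lay above 0 and 4 below, with a median of 0.01. Fasn, which builds the chain, had 13.85, 13.72 and 13.69 in single-Stat5b arrays, against 13.64, 13.65 and 13.58 in single-Stat5a arrays, a difference of 0.13 with an interval from -0.21 to 0.47. The Fasn groups did not overlap, although their nearest arrays lay close together. Acaca, the acetyl-CoA carboxylase that commits carbon to synthesis, had 13.20, 12.67 and 13.07 in single-Stat5b arrays, against 13.34, 13.22 and 13.38 in single-Stat5a arrays, a difference of -0.33 without overlap. Acaca and Fasn, consecutive enzymes, thus lay on opposite sides of 0, and neither passed. Pcx, pyruvate carboxylase, which refills the citrate pool, had the largest difference of this group at -0.60, with 11.01, 10.38 and 11.55 in single-Stat5b arrays, against 11.77, 11.47 and 11.51 in single-Stat5a arrays (limma adjusted p = 0.436). The third single-Stat5b array lay inside the single-Stat5a range. Acly, the ATP-citrate lyase, was at 0.23, with its other 3 probe sets past the filter at 0.23, -0.22 and 0.90. Acss2, which activates acetate, was at 0.10, Slc25a1, the mitochondrial citrate carrier, at 0.05, Me1, the NADPH-making malic enzyme, at -0.04 and Acacb, the carboxylase that restrains fatty acid oxidation, at -0.48. Other probe sets past the filter were at -0.13 and 0.51 for Acss2, -0.21 for Me1 and -0.17 for Acaca.

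On the probe sets used, elongases and desaturases lay close to 0, and none passed the test. All 7 differences between the single-allele genotypes were between -0.12 and 0.10. Elovl1, an elongase of saturated very long chains, had the largest, -0.12, with 12.82, 11.69 and 13.00 in single-Stat5b arrays, against 12.58, 12.80 and 12.49 in single-Stat5a arrays. The second single-Stat5b array was the low one, and the groups overlapped. Scd1, the main delta-9 desaturase of adipose tissue, was at 0.07, Elovl6, which elongates palmitate, at 0.10, Elovl5 at 0.04, and the polyunsaturated fatty acid desaturases Fads1 and Fads2 at -0.07 and 0.00. Other probe sets past the filter differed by -0.33 for Fads1, -0.34 and 0.33 for Fads2, 0.16 for Scd1 and 0.09 for Elovl5. Those of Elovl1 differed by -0.11, -0.36 and -0.00034. Elovl6 read otherwise on its other probe sets, which differed by -0.35 and 1.63. The one at 1.63 gave 9.18, 10.26 and 10.28 in single-Stat5b arrays, against 8.55, 7.94 and 8.33 in single-Stat5a arrays, without overlap and without passing the test (limma adjusted p = 0.446 with each probe set tested on its own).

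Scd2, a second delta-9 desaturase, differed among its own probe sets. The probe set used gave 12.66, 12.38 and 12.17 in single-Stat5b arrays, against 12.11, 12.57 and 12.55 in single-Stat5a arrays, a difference of -0.01. The second gave a difference of -0.23. The third gave 11.91, 11.57 and 11.30 in single-Stat5b arrays, against 7.76, 8.57 and 8.53 in single-Stat5a arrays, a difference of 3.31 (limma adjusted p = 5.49e-05 with each probe set tested on its own). In the 2-allele set it read 8.41, 9.04 and 7.64 in Stat5a-/- arrays, against 7.93, 8.42 and 7.96 in Stat5ab+/null arrays, so that the 3 single-Stat5b arrays stood alone among the 12. Since the platform's annotation gives the 3 probe sets to the same gene and the same accession, no single direction for Scd2 can be given between the single-allele genotypes.

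**Figure D3:**
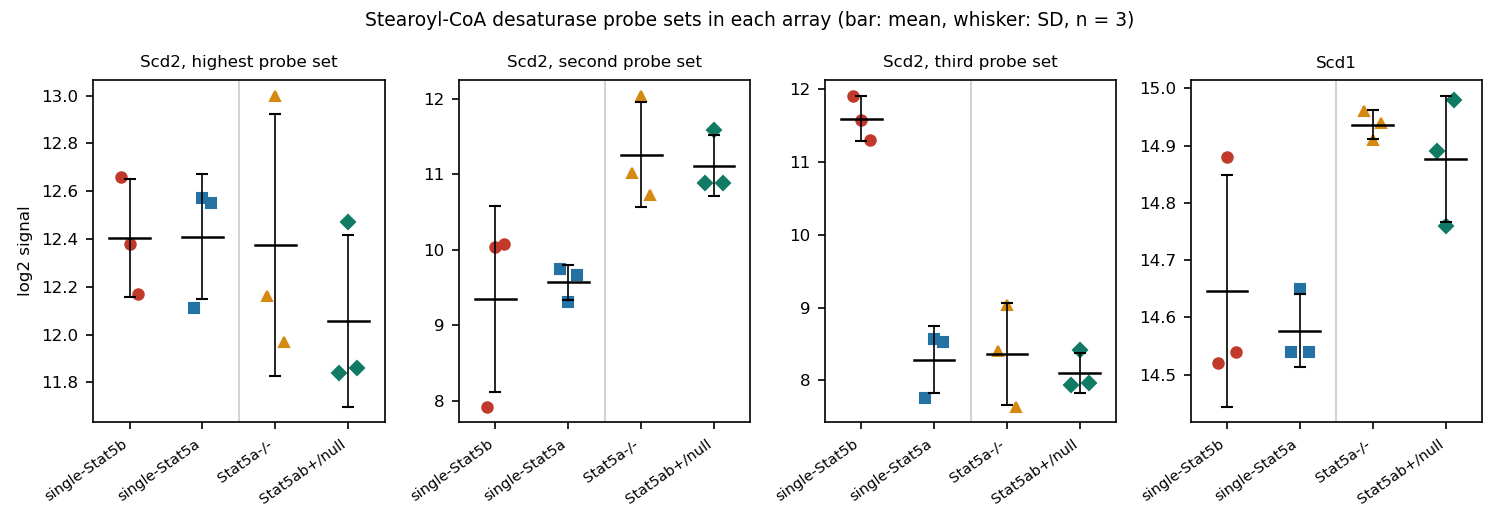
Log2 signal of the 3 Scd2 probe sets and of Scd1 in each of the 12 arrays, with the mean and SD of each genotype (n = 3), the axes not starting at 0. Only the third Scd2 probe set separates the single-Stat5b arrays, at 11.30 to 11.91, from the other 9 arrays.

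On the probe sets used, 4 of 5 genes of fatty acid activation and binding lay above 0 between the single-allele genotypes and none passed. Fabp3, the heart-type fatty acid binding protein, which muscle also makes, had the widest spread of the list, with 7.47, 7.16 and 8.58 in single-Stat5b arrays, against 8.97, 9.69 and 6.61 in single-Stat5a arrays. Its difference of -0.69 had an interval from -2.14 to 0.77. The highest Fabp3 value lay in the single-Stat5a array with the highest muscle marker mean, 13.27. In single-Stat5b and Stat5a-/- arrays the highest Fabp3 value of the genotype also lay in the array with its highest muscle mean. In Stat5ab+/null arrays it lay in the array with the lowest, 6.51. The part of muscle in the Fabp3 spread was not tested. Fabp5, another fatty acid binding protein, was at 0.21, and the acyl-CoA synthetases Acsl3, Acsl4 and Acsl5 were at 0.24, 0.28 and 0.07. The other probe sets of Fabp5 and Fabp3 lay below 0, at -0.13 and -0.24. Those of Acsl3 (0.25 and 0.11) and Acsl4 (0.28 and 0.01) lay above it.

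On the probe sets used, all 6 regulators lay below 0 in single-Stat5b minus single-Stat5a, with a median of -0.09. Thrsp lay above 0 on its other probe sets, at 0.23 and 0.02, and the other Scap probe set was at -0.46. Insig2, which holds the SREBP escort protein Scap in the endoplasmic reticulum, had 9.90, 9.97 and 10.26 in single-Stat5b arrays, against 10.27, 10.29 and 10.69 in single-Stat5a arrays. The groups did not overlap, although the nearest arrays almost met, and the difference of -0.37 did not pass the test (limma adjusted p = 0.410). Its other probe sets differed by -0.06 and 0.11. Srebf1, which encodes SREBP-1, was at -0.07, Scap at -0.01, Insig1 at -0.04, Mlxipl, which encodes ChREBP, at -0.27 and Thrsp, a lipogenic protein induced by thyroid hormone and carbohydrate, at -0.12.

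Counted by overlap, the genes without overlap between the single-allele genotypes were Fasn and Lpin2 among the higher, 5.56% of the 36 against 4.63% of all genes, and Acaca, Lpin1 and Insig2 among the lower, 8.33% against 6.26%. On the probe sets used, the 95% interval lay within 1 log2 unit on both sides for 31 of 36 genes. A 2-fold difference lay outside these intervals. For Acacb, Pcx, Fabp3, Agpat3 and Lpin1 the interval reached beyond 1 log2 unit. With only the single-allele arrays in the fit, those of Acsl4 (-0.61 to 1.16), Gpat4 (-1.05 to 0.50) and Dgat1 (-1.03 to 0.25) did so too. The Scd2 and Elovl6 probe sets at 3.31 and 1.63 were not among those used. The p values that missed the threshold do not show that the remaining genes are alike in the 2 genotypes.

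Between the 2-allele genotypes none of the 36 genes passed the test, in a comparison in which 0.00704% of all genes, 1 of 14198, was called. At an unadjusted p under 0.05 it held 427 of all genes and 0 of the 36. The list had 19 genes above 0 and 17 below, with a median of 0.02 against -0.08 over all genes, and 35 of 36 differences were within 1.5-fold. Acsl4, an acyl-CoA synthetase that prefers arachidonic acid, was the exception, with 9.36, 9.57 and 9.58 in Stat5a-/- arrays, against 8.85, 8.86 and 8.99 in Stat5ab+/null arrays. The groups did not overlap, and the difference was 0.60 with an interval from -0.11 to 1.32 (limma adjusted p = 1.00). With only the 2-allele arrays in the fit its SE was 0.11 in place of 0.33 (limma adjusted p = 0.268). With array weights the difference was 0.65 (limma adjusted p = 0.0340), in a setting that called 202 of all 14198 genes and 1 of the 36. The other 2 Acsl4 probe sets gave 0.25 and -0.10. In the single-allele set Acsl4 signal was 11.54, 12.44 and 10.64 in single-Stat5b arrays, against 11.11, 11.50 and 11.19 in single-Stat5a arrays, with the widest range of any listed gene in single-Stat5b arrays, 1.80.

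Insig2 lay on the same side in both sets. Its signal was 10.25, 10.36 and 10.32 in Stat5a-/- arrays, against 10.66, 10.59 and 10.67 in Stat5ab+/null arrays, a difference of -0.33 without overlap (limma adjusted p = 1.00; with only the 2-allele arrays in the fit, 0.290). The other 2 Insig2 probe sets gave -0.13 and 0.22 there, so that 1 was smaller on the same side and 1 lay on the other. Acsl5, a mitochondrial and endoplasmic reticulum synthetase, had 11.59, 11.51 and 11.70 in Stat5a-/- arrays, against 11.77, 11.86 and 11.90 in Stat5ab+/null arrays, a difference of -0.24 without overlap. Genes without overlap thus made up 2.78% of the list among the higher, against 5.49% of all genes, and 5.56% among the lower, against 13.6%. The other genes with the largest difference of their role were Acss2 at 0.24, Scd2 at 0.32 and Lpin3 at -0.29. Acss2 had 11.99, 12.58 and 12.80 in Stat5a-/- arrays, against 11.90, 12.10 and 12.64 in Stat5ab+/null arrays. Scd2 had 12.16, 13.00 and 11.97 in Stat5a-/- arrays, against 11.84, 12.47 and 11.86 in Stat5ab+/null arrays. Both overlapped.

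The core enzymes lay near 0 in the 2-allele comparison. Fasn had 14.28, 14.44 and 14.49 in Stat5a-/- arrays, against 14.33, 14.25 and 14.65 in Stat5ab+/null arrays, a difference of -0.01 with an interval from -0.35 to 0.33. Acaca was at 0.04, Acly at 0.18, Scd1 at 0.06, Srebf1 at -0.09, Dgat1 at -0.05 and Dgat2 at -0.08. Intervals lay within 1 log2 unit for 33 of 36 genes, the exceptions being Acacb, Acsl4 and Fabp3. With only the 2-allele arrays in the fit, the interval of Scd2 reached 1.03 and that of Acsl4 0.85. White adipocyte markers averaged 13.11 ± 0.15 in Stat5a-/- arrays and 13.11 ± 0.08 in Stat5ab+/null arrays (SD, n = 3 each). B cell markers, 9 of 11 measured, averaged 6.74, 6.77 and 11.28 in Stat5a-/- arrays, against 7.64, 11.70 and 9.30 in Stat5ab+/null arrays, with all 9 genes below 0 and a median of -1.40. Luminal epithelial markers averaged 11.02 ± 0.19 in Stat5a-/- arrays and 11.19 ± 0.11 in Stat5ab+/null arrays (SD, n = 3 each), with 13 of 15 genes below 0. None of these markers passed the test, and with the B cell and muscle means, or the luminal mean, as covariates 0 of the 36 genes were called.

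Within the 2-allele set the arrays of 1 genotype differed among themselves. The third Stat5ab+/null array was the highest of its genotype for 32 of the 36 genes, 88.9%, against 38.2% of all genes, and the third Stat5a-/- array for 19 of 36, 52.8%, against 36.3% of all genes. Acacb had 10.27, 11.25 and 11.73 in Stat5a-/- arrays, against 10.24, 10.82 and 12.48 in Stat5ab+/null arrays, so its range over the Stat5ab+/null arrays was 2.24. Elovl6 had 13.59, 14.07 and 14.34 in Stat5a-/- arrays, against 13.52, 13.78 and 14.48 in Stat5ab+/null arrays. Slc25a1 had 13.25, 13.97 and 14.03 in Stat5a-/- arrays, against 13.28, 13.68 and 14.15 in Stat5ab+/null arrays. In each of these genes the first array of either genotype was low and the third high.

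The arrays that were high in the genes for making fatty acids from citrate and acetate were also high in brown adipocyte markers. Of these markers 7 of 8 were measured. The mean of the 8 synthesis genes, among them the carrier Slc25a1 and the carboxylase Acacb, was 12.82, 13.32 and 13.45 in Stat5a-/- arrays, against 12.80, 13.00 and 13.57 in Stat5ab+/null arrays. The brown marker mean was 8.25, 9.04 and 9.72 in Stat5a-/- arrays, against 8.34, 8.50 and 10.20 in Stat5ab+/null arrays. Ucp1, the uncoupling protein that defines brown fat, had 6.43, 8.06 and 9.43 in Stat5a-/- arrays, against 6.94, 6.90 and 11.16 in Stat5ab+/null arrays. In each of these genotypes the third array was the highest for 6 of the 7 markers. The exceptions were Ppargc1a, a coactivator of mitochondrial genes, in Stat5a-/- arrays (6.63, 6.79 and 6.60) and Dio2, which activates thyroid hormone, in Stat5ab+/null arrays (7.37, 7.01 and 7.34). Elovl3, 1 of the 7 markers, encodes a fatty acid elongase and was also counted among the other elongation enzymes below. In the 2-allele arrays Elovl3 ranged from 7.97 to 11.85 and Ucp1 from 6.43 to 11.16. Ppargc1a ranged from 6.38 to 6.79 and Dio2 from 7.01 to 7.37 there, and the ranges of Cidea, Cox7a1 and Cox8b lay between these in width. Over the 6 arrays the 2 means correlated at Pearson's r = 0.96 (exact permutation p = 0.00556, adjusted p = 0.0333 over 6 relations) and Spearman's rho = 0.94 (exact permutation p = 0.0167, adjusted p = 0.1), and r was 0.99 without the 2 arrays farthest from the median of the brown marker mean. In the single-allele set the synthesis gene mean was 12.70, 12.54 and 12.48 in single-Stat5b arrays, against 12.75, 12.61 and 12.72 in single-Stat5a arrays, and the brown marker mean was 9.33, 8.78 and 8.39 in single-Stat5b arrays, against 9.86, 8.74 and 8.82 in single-Stat5a arrays. Ucp1 was 9.35, 8.45 and 6.57 in single-Stat5b arrays, against 11.69, 6.72 and 7.09 in single-Stat5a arrays, so it was low in the third single-Stat5a array, where the synthesis gene mean was not. There r was 0.79 (exact permutation p = 0.025, adjusted p = 0.075), rho was 0.89 (exact permutation p = 0.0333, adjusted p = 0.1) and r without the 2 farthest arrays was 0.75. The relation was chosen after the values were seen, and the adjustment over 6 relations does not cover that choice. The 6 arrays of a set hold 2 genotypes, and the part of brown adipocytes in the relation was not tested. The relation with Elovl3 left out of the brown marker mean was not tested either. With the brown marker mean as a covariate, 0 of the 36 genes were called between the 2-allele genotypes and their median was 0.02. White adipocyte and luminal epithelial marker means correlated with the synthesis gene mean at r between -0.56 and 0.29 in the 2 sets, with adjusted exact permutation p of at least 0.478, and at rho between -0.66 and 0.43, with adjusted exact permutation p of at least 0.35.

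**Figure D4:**
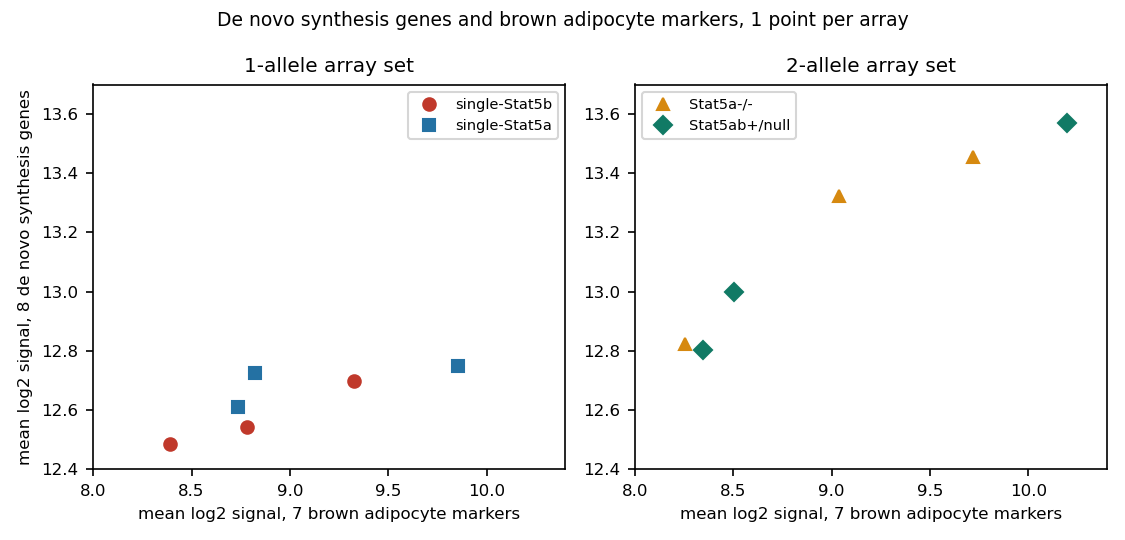
Mean log2 signal of the 8 tested synthesis genes against the mean of 7 brown adipocyte markers, 1 point per array, with the 1-allele arrays on the left and the 2-allele arrays on the right. In the 2-allele set the third arrays of both genotypes lie highest on both axes.

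In the single-allele set the single-Stat5b arrays varied more. The median range of a listed gene over the 3 arrays was 0.66 in single-Stat5b arrays and 0.295 in single-Stat5a arrays, and 11 genes against 1 had a range over 1 log2 unit. In the 2-allele set the median range was 0.32 in Stat5a-/- arrays and 0.475 in Stat5ab+/null arrays, with 3 genes against 2 over 1 log2 unit.

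Other genes of lipid metabolism were taken as 7 lists of 87 genes, of which 76 were tested: sterol synthesis, supply of NADPH, citrate and glucose carbon, fatty acid uptake, other elongation enzymes, other glycerolipid enzymes, fatty acid oxidation and other regulators. Between the single-allele genotypes 1 of the 76 fell and none rose, and the median difference was -0.04. The gene that fell was Sc5d, the sterol desaturase of late cholesterol synthesis, with 10.36, 10.52 and 10.41 in single-Stat5b arrays, against 11.31, 11.79 and 11.21 in single-Stat5a arrays. Its difference was -1.01 ± 0.19 (SE; limma adjusted p = 0.00988), and in the 2-allele set it had 10.50, 10.59 and 10.16 in Stat5a-/- arrays, against 10.39, 10.26 and 10.37 in Stat5ab+/null arrays. Of the 16 sterol synthesis genes tested, 8 lay above 0 and 8 below in the single-allele comparison, with a median of 0.01. Of the 10 fatty acid oxidation genes, 2 lay above 0 and 8 below, with a median of -0.15. None of the 76 was called between the 2-allele genotypes, where the median was 0.02, or in the interaction.

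Levels across the array sets are given as a description. On the probe sets used, 12 of the 36 genes were lower in all 6 single-allele arrays than in all 6 arrays of the 2-allele set, 3 were higher and 21 overlapped. These are 33.3% and 8.33% of the list, against 23.3% and 27.4% of all genes in the same directions. The lower ones ran from Slc25a1 at -3.01, Gpat4 at -2.16, Pcx at -2.06 and Srebf1 at -1.91 to Thrsp at -0.48, and the higher ones were Acsl4 at 2.20, Elovl1 at 1.37 and Acly at 0.62. Other probe sets of the same gene often read otherwise. Among 25 genes with more than 1 probe set past the filter, the median spread between probe sets of this difference was 2.05, and in 17 genes the probe sets had opposite signs. Gpam, for example, was at 0.25 on the probe set used and at -4.15 on the other. Acly ran from 2.12 to -3.62 over 4 probe sets. Within the sets the probe sets of a gene lay closer together, with a median spread of 0.36 in the single-allele comparison and 0.18 in the 2-allele comparison.

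The array's own quality probes also separated the sets. The 3 prime minus 5 prime difference of the Pcx control probe sets was 4.72 ± 0.32 in single-Stat5b arrays, 5.57 ± 0.53 in single-Stat5a arrays, 2.02 ± 0.16 in Stat5a-/- arrays and 2.12 ± 0.31 in Stat5ab+/null arrays (SD, n = 3 each). That of actin was 2.79 ± 0.87 in single-Stat5b arrays, 2.55 ± 0.47 in single-Stat5a arrays, 0.15 ± 0.02 in Stat5a-/- arrays and 0.22 ± 0.04 in Stat5ab+/null arrays (SD, n = 3 each). The part of RNA or labelling quality in the levels across sets was not tested, and no level difference between the sets is assigned to the number of Stat5 alleles.

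**Figure D5:**
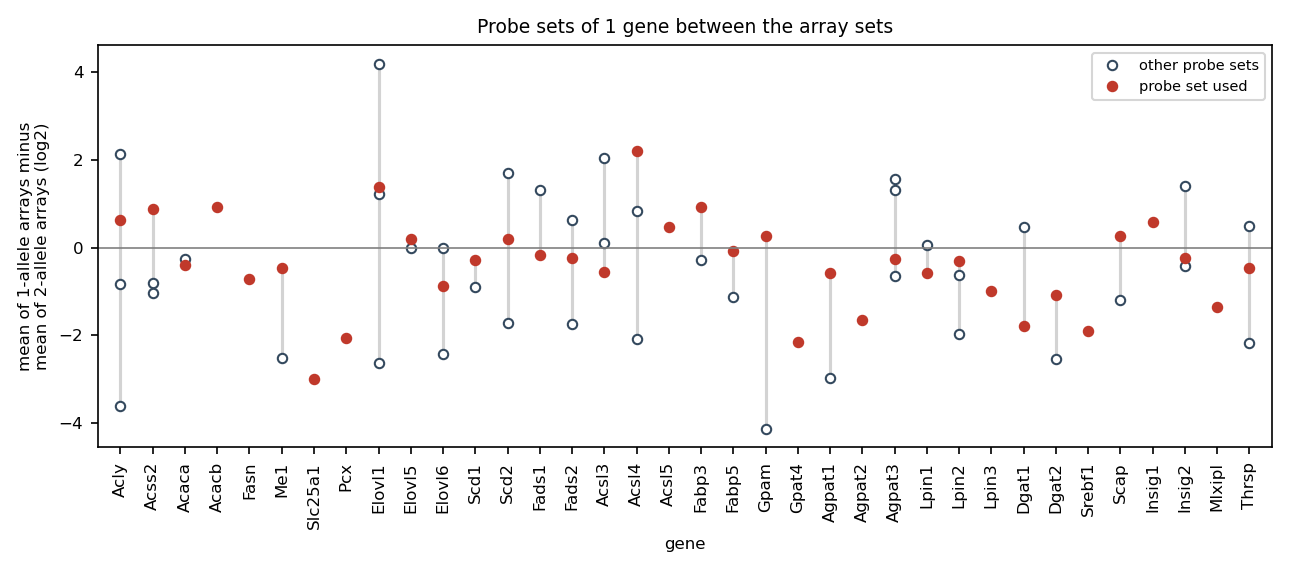
Mean of the 6 single-allele arrays minus mean of the 6 arrays with 2 alleles, in log2 units, for every probe set past the filter of each tested gene, the probe set used in red and the others open. Probe sets of 1 gene lie on both sides of 0 in 17 of 25 genes with more than 1.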

How the data were processed

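Total RNA of whole mammary tissue (12 mice, 3 per genotype) was labelled with biotin and hybridized to Affymetrix mouse arrays, per the labels' protocols. The authors deposited log2 signals for 45101 probe sets. RMA and Partek are named in the submitters' processing notes, without versions or settings. Groups came from the genotype labels, and replicates were numbered in record order.

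Probe sets were named with the platform's annotation: 34945 named 1 gene, 932 several and 9160 none, and 64 control probe sets were left out. A filter at the 30th percentile of probe set means (log2 6.04) removed low signals, and the probe set of highest mean was used per gene. R 4.3.3 and limma 3.58.1 gave the differences, with 1 mean per genotype, a spread shared by the 12 arrays, 2-sided moderated tests and Benjamini-Hochberg adjustment over 14198 genes. The number of arrays limits the precision. The fit was tested on simulated data. Exact permutations and figures were made in Python 3.11.15 with scipy 1.17.1 and matplotlib 3.10.9. The members and lists were chosen with earlier results of these data known. Per-array values are given for called genes and for the largest difference of each role, and others named were chosen after their values were seen. Alternatives changed the filter, normalization, probe set choice, variance, arrays and cell marker or actin covariates. The brown adipocyte covariate and the test of each probe set on its own were chosen after seeing the data. Probe sets ending in _s_at or _x_at can also bind related transcripts. Promoter sequences are RefSeq's, GRCm38.p6.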

Additional observations from a re-analysis of the deposited data

Results flagged for a closer look

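The third Scd2 probe set, which was not the one used for the gene, differed by 3.31 on the log2 scale between single-Stat5b and single-Stat5a arrays, above the level in the 9 other arrays. The 2 other Scd2 probe sets differed by -0.01 and -0.23 in the same arrays. The cause was not tested.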

How the results depend on the processing

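No paired analysis was possible because the groups share no replicate numbers in the labels. Of 26 alternatives, 12 left out 1 array each. For single-Stat5b minus single-Stat5a, 1 listed gene was called. It was 0 with only the compared groups, with the white adipocyte, the B cell and muscle, or the luminal marker means as covariates, and with 4 arrays left out together (the third Stat5a-/-, the second Stat5ab+/null, the second single-Stat5a and the second single-Stat5b), and 4 with array weights (Lpin1, Gpat4, Dgat1 and Insig2). Leaving out 1 array gave 0 to 1, losing Lpin1 without the second single-Stat5a (adjusted p = 0.0629), the third single-Stat5a (0.0515) or the first single-Stat5b array (0.0641). Array weights called 1 listed gene for Stat5a-/- minus Stat5ab+/null (Acsl4) and 2 in the interaction (Lpin1 at -1.45 and Lpin2 at 0.59), against 0 and 0. The interaction median of -0.11 was 0.064 with the 4 arrays left out. Of all genes, 310 were called between the single-allele genotypes, 157 with only the compared groups, 2228 with array weights and 197 with the B cell and muscle means. Leaving out 1 array gave 232 to 896, the highest without the third single-Stat5b array. For the 2-allele genotypes 1 gene was called, 0 with a 50th percentile filter or the 4 arrays left out, 2 with only the compared groups or the white adipocyte mean, 3 with the B cell and muscle means, 202 with array weights, and 0 to 5 without 1 array. The interaction called 110 genes, 1580 with array weights, 63 with the B cell and muscle means, 67 with the luminal mean, and 64 to 199 without 1 array. List medians without 1 array were -0.10 to -0.03, -0.05 to 0.14 and -0.23 to -0.03 in the 3 comparisons. The causes of these shifts were not tested. With 3 arrays per genotype the typical 95% interval spans 0.52 log2 on each side.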
